A study of Arabidopsis thaliana with 6 samples.

Results

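VSP1, VSP2, CORI3 and TAT3 are output genes of the jasmonate pathway in Arabidopsis thaliana. They make up 4 of the 33532 gene identifiers in the deposited expression table and were picked by identifier (AT5G24780, AT5G24770, AT4G23600 and AT2G24850) as jasmonate-inducible genes with low values after doxycycline. Their difference between doxycycline and control is therefore the reason they were picked, and it is given below as a description with no test. All 4 averaged 1 FPKM or more across the libraries and so entered the fit. FPKM is the number of fragments of a transcript, scaled to its length in kilobases and to the depth of the library.

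RNA was sequenced from whole wild-type seedlings of the Col-0 accession, grown on 1/2 MS plates for 10 days. Control plates held no drug. The other seedlings grew on the same medium with doxycycline at 5 µg/mL. This tetracycline antibiotic blocks ribosomes of the bacterial type, including those of mitochondria and plastids. Each condition had 3 libraries, described by the submitters as biological replicates, and the question, per the title, is how seedlings respond when mitochondrial translation is impaired.

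Jasmonates are lipid-derived hormones made in plastids and peroxisomes after wounding, insect attack and during flower development. The active form, jasmonoyl-isoleucine, brings the receptor COI1 together with JAZ repressors, which are then degraded and release MYC2 and related transcription factors. VSP1 and VSP2 encode vegetative storage proteins of the HAD acid phosphatase family, which accumulate in shoots and flowers and, for VSP2, act against insects. CORI3, also called JR2, encodes a cystine lyase related to aminotransferases and was named for its induction by coronatine, a bacterial mimic of jasmonoyl-isoleucine. TAT3 encodes a tyrosine aminotransferase whose transcript responds to jasmonate and wounding.

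The submitters' processing notes name the TAIR10 genome, and the table itself holds no coordinates. The positions and sequences given here come from RefSeq's annotation of TAIR10.1. VSP2 (chr5:8500468-8502224, minus strand) and VSP1 (chr5:8507590-8509201, minus strand) stand in tandem on chromosome 5, with 3 exons each and the pseudogene AT5G24775 between them. CORI3 (chr4:12310379-12313212, plus strand) and TAT3 (chr2:10582074-10585216, minus strand) each have 7 exons.

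The 300 bases before the start codon of each gene were searched on both strands for CACGTG, the G-box bound by MYC2, and for 4 variants, namely CACGTT along with CACATG as well as CACGAG and also CACGCG. This window and these hexamers were settled after the sequences had been looked at. Every member held at least 1 of the 5 hexamers there, as did 29.0% of the 26669 protein-coding genes in the table with such a window. The first match upstream of each start codon is shown with 12 bases on either side, on the coding strand, with the hexamer in capitals, because the rule that picked the 4 genes did not use these letters.
VSP1 chr5:8509097-8509126: tagcacagtctcAACGTGctctaaaaacga
VSP2 chr5:8502055-8502084: gcacacaatctcAACGTGcactaaaaacga
CORI3 chr4:12310498-12310527: atgttaatatccCACGTGagatatcaaatg
TAT3 chr2:10585310-10585339: tattgatcgtagCATGTGgaaaatgttgat
AACGTG is CACGTT read on the other strand, and CATGTG is CACATG. In VSP1 the hexamer began 225 bases before the start codon and in VSP2 228 bases before it, in nearly the same surroundings, and CORI3 carried the palindromic G-box 147 bases before its start codon. All 3 lie between the annotated gene start and the start codon. Whether they fall in exons of a given transcript model was not checked. CACGTT or its complement occurred in 8.3% of all such windows, CACGTG in 6.3% and CACATG in 10.3%.

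TAT3 had the shortest annotated stretch from gene start to start codon, 64 bases, so its matches fall upstream of the annotated gene start. Its 250 bases before that start (chr2:10585217-10585466, minus strand) are shown with the MYC-type hexamers and the TATA-like TATAAA in capitals.
TAT3 upstream: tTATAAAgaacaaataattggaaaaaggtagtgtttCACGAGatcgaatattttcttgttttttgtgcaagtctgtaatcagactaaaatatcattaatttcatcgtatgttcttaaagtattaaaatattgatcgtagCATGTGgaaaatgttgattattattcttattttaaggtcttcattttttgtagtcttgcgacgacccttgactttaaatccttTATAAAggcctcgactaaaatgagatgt
CACGAG began 214 bases and CATGTG 111 bases before the annotated start, and the nearer TATAAA 28 bases before it. GCCGCC, the core bound by ethylene response factors, was in none of the 4 windows and in 3.3% of all windows. TGACG, the core bound by TGA factors, was in that of VSP2 and in 22.5% of all windows. A match describes letters only, and no factor's binding was measured.

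VSP1 and VSP2 are close relatives, so it matters how far their reads can be told apart. Over 795 aligned coding bases they were identical at 90.4%. The longest run common to both transcripts was 54 bases, and 0.4% of the 50-base stretches of VSP1 occurred exactly in VSP2. With up to 2 mismatches allowed, 15.1% of the 50-base stretches and 2.8% of the 100-base stretches of VSP1 matched VSP2. The 60 coding bases in which the genes differ most are shown with the 14 differing bases in capitals, counted from the start codon as coding bases 586 to 645 of VSP1 and 571 to 630 of VSP2.
VSP1: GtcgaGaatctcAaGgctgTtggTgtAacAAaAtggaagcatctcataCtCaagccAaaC
VSP2: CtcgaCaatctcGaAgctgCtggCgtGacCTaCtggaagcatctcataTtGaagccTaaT
CORI3 and TAT3 were identical at 61.9% of 1261 aligned coding bases. CORI3 and its neighbour AT4G23590, another gene of the tyrosine transaminase family, were identical at 79.3% and shared no 50-base stretch, even with 2 mismatches. How the submitters' tools assigned reads that match both storage protein genes is not given in the sources used here.

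Before the values, the libraries themselves need a remark. Across the 19035 genes averaging 1 FPKM or more, which are the genes tested below, log2 values of the 3 doxycycline libraries correlated at 0.988 to 0.992 and those of the 3 controls at 0.831 to 0.895, while control 1 correlated with the doxycycline libraries at 0.961 to 0.964. These are correlations across genes, which are not independent replicates. Control 2 was the highest library in 9817 of the 19035 genes. Its 18S ribosomal RNA stood at 10573 FPKM, where the other libraries had 457 to 1833 FPKM. Nothing in the labels says whether plates or harvests were separate, so any p-value measures the spread between these 6 libraries, which may be technical. The lowest values put depth at an estimated 18500000 to 21800000 fragments per library. At that depth 1 fragment on a transcript of 1 kb is worth 0.0459 to 0.0541 FPKM.

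VSP2 was the most abundant of the 4 transcripts in every library. It stood at 83.2, 293 and 863 FPKM across controls 1 to 3 and at 13.6, 11.7 and 8.65 FPKM in doxycycline libraries 1 to 3. The groups did not overlap, and the lowest control, control 1, was 6.10 times the highest doxycycline library. In control 3 VSP2 ranked 75 among all 33532 identifiers by FPKM, in control 1 it ranked 1351, and with doxycycline its rank lay between 7341 and 9951. On the log2(FPKM + 1) scale, on which all differences below are given, the doxycycline mean lay 4.51 below the control mean (log2 difference -4.51).

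VSP1, the tandem neighbour, stood at 17.6, 167 and 302 FPKM across controls 1 to 3 and at 4.78, 4.61 and 5.51 FPKM with doxycycline. Again the groups did not overlap. Control 1 lay much closer to the doxycycline libraries than controls 2 and 3 did, at 3.20 times the highest of them. The log2 difference between the group means was -4.04. The 3 doxycycline libraries were close together, with an SD of 0.113 log2 units (n = 3) where the median gene had 0.131, whereas the controls had an SD of 2.12 log2 units (n = 3).

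CORI3, the cystine lyase gene, stood at 13.5, 32.7 and 151 FPKM across the controls and at 2.06, 0.856 and 2.17 FPKM with doxycycline. The lowest control was 6.23 times the highest doxycycline library, so this gene and VSP2 kept the widest distance between groups. The log2 difference was -4.0.

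TAT3, the tyrosine aminotransferase gene, was the least abundant member in each library. It stood at 1.47, 3.50 and 54.7 FPKM in controls 1 to 3, at 0.702 FPKM in doxycycline library 1, and was listed at 0 in the other 2. An exact 0 in such a table can be a failed estimate, although no identifier was listed at 0 in any of these libraries while holding at least 5 FPKM in all 5 others. Control 3 held most of the TAT3 signal, and control 1 was 2.09 times doxycycline library 1. The log2 difference was -2.84. It was -1.48 without control 3, so that 1 library decides its size.

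**Figure D1:**
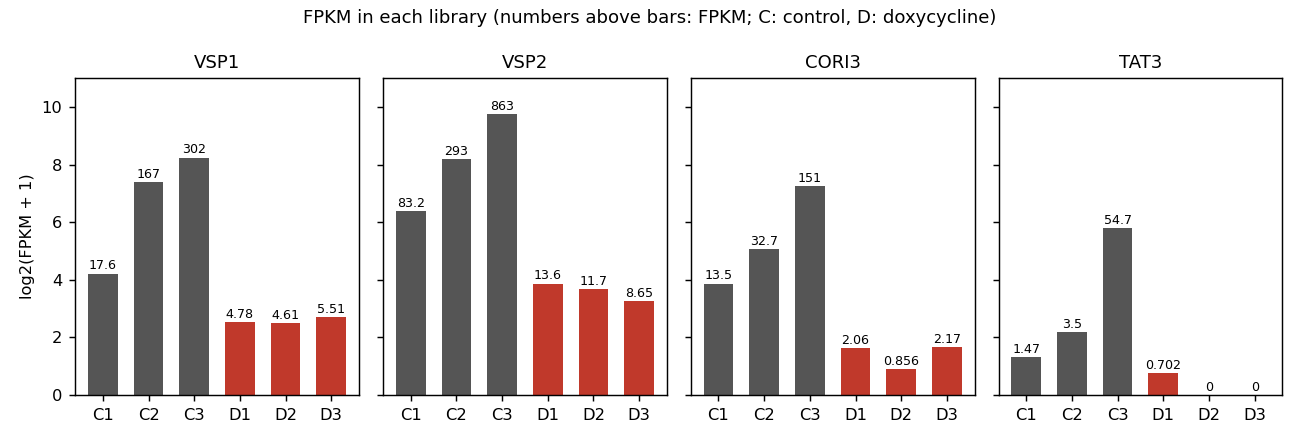
FPKM of VSP1, VSP2, CORI3 and TAT3 in control libraries 1 to 3 (C1 to C3, grey) and doxycycline libraries 1 to 3 (D1 to D3, red), drawn as log2(FPKM + 1) with the FPKM printed above each bar. In each gene C1 is the lowest and C3 the highest control, 3.36 to 4.50 log2 units apart, and every doxycycline bar is lower than the C1 bar.

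All 4 members thus lay below every control in all 3 doxycycline libraries, as 25.7% of the 19035 genes tested did. That share was 17.1% after median-of-ratios scaling and to 16.7% after quantile normalization. Genes above every control made up 9.59% on the deposited scale and 18.2% and 17.2% under those scalings. In VSP1, VSP2 and CORI3 the nearest control and doxycycline libraries were still at least 1 log2 unit apart, as in 0.457% of genes. TAT3 missed that distance, at 0.54 log2 units. Since the members were picked on this contrast, nothing is read from these counts. Fewer cells expressing a gene and less of its RNA per cell cannot be told apart in whole seedlings.

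The controls differed widely among themselves in these genes. Their SD over the 3 controls was 2.12 log2 units for VSP1, 1.68 for VSP2, 1.72 for CORI3 and 2.39 for TAT3, where the median gene had 0.459 (n = 3 controls each). These values stood at percentiles 97.5 to 99.5 of all genes tested. With doxycycline the SD was 0.113 log2 units for VSP1, 0.305 for VSP2, 0.433 for CORI3 and 0.443 for TAT3 (n = 3 each). The median gene had 0.131 there, and VSP2, CORI3 and TAT3 stood at percentiles 91.5 to 97.5. In all 4 members control 1 was lowest, control 2 between and control 3 highest, as in 17.9% of genes, and 6.09% of genes combined that ranking with doxycycline values below all controls. The controls are replicates of 1 condition, so the ranking is no trend. Control 3 held 17.1 times the FPKM of control 1 for VSP1, 10.4 times for VSP2, 11.2 times for CORI3 and 37.2 times for TAT3.

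Which control served as the reference therefore set the size of the difference. For VSP2 the doxycycline mean lay at -2.79 against control 1, -4.60 against control 2 and -6.15 against control 3. For VSP1 these log2 differences were -1.64, -4.82 and -5.67, and for CORI3 they were -2.47, -3.68 and -5.86. TAT3 gave -1.05, -1.91 and -5.54. All 12 differences were negative. Against control 1 alone, 1.93% of genes had a doxycycline mean at least 2-fold lower, and all 4 members were among them. Since the members were picked as low with doxycycline, nothing is read from this share or from the signs. The 3 sets of differences share the doxycycline libraries and are not independent of each other.

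The members also differed in where control 2 stood between the other controls. In control 2 VSP1 was at 9.46 times its level in control 1, VSP2 at 3.53 times, CORI3 at 2.42 times and TAT3 at 2.38 times. For TAT3 the wide distance was between control 3 and control 2, at 15.6 times, where VSP1 had 1.81 times. Over the 6 libraries the centred profiles of VSP2 and CORI3 were the closest pair, with a root mean square distance of 0.470 log2 units (Pearson's r 0.984). VSP1 and VSP2 stood 0.516 apart (r 0.978), and VSP1 and TAT3 were the farthest pair at 1.09 (r 0.889). These likenesses describe 6 libraries that share a large step between groups.

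Per length, VSP2 exceeded its tandem neighbour VSP1 by a ratio of 4.72, 1.76 and 2.86 across controls 1 to 3 and of 2.85, 2.54 and 1.57 on doxycycline. The ranges of the groups overlapped. The mean log2 ratio was 1.52 ± 0.712 in controls and 1.17 ± 0.456 with doxycycline (SD, n = 3 each), a difference of -0.36 that became 0.002 without control 1. VSP2 stood at 6.14, 8.97 and 5.70 times CORI3 in the controls and at 6.61, 13.7 and 3.98 times CORI3 with doxycycline, and these ranges overlapped too. The order VSP2, VSP1, CORI3, TAT3 by FPKM held in each of the 6 libraries, with VSP1 between 1.3 and 5.38 times CORI3.

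**Figure D2:**
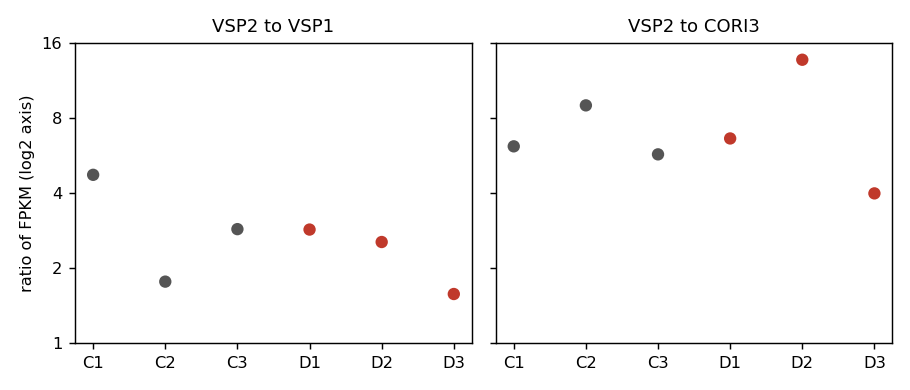
Ratio of the FPKM of VSP2 to that of VSP1 (left) and of VSP2 to that of CORI3 (right) in each control (C, grey) and doxycycline (D, red) library, on a log2 axis. The values of the groups overlap in both panels, with the highest VSP2 to VSP1 ratio, 4.72, in control 1.

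Across all genes, 0 of 19035 passed a Benjamini-Hochberg adjusted p of 0.05 with limma (0% called), and 4876 (25.6%) had an unadjusted p under 0.05, of which 3575 (18.8% of genes tested) were lower and 1301 (6.83%) higher with doxycycline. Without control 1 the count past the adjusted threshold was 8637. The rest of the jasmonate pathway was followed in 6 lists of other genes, 67 in all, of which 64 were tested. Of these 64, 0 passed in either direction, while 41 were lower and 0 higher at an unadjusted p under 0.05. The groups were separate in 46 of the 64 (71.9%), all lower with doxycycline, where 25.7% of all genes tested lay below every control. Those below numbered 43 (67.2%, against 17.1% of all genes) after median-of-ratios scaling and 40 (62.5%, against 16.7%) after quantile normalization. Without control 1, limma called 45 of the 64 lower (70.3%) and 0 higher, where it called 35.6% of all genes lower. In 47 of the 64 (73.4%) control 3 was the highest of all libraries, which was so in 20.7% of all genes tested. Some of the 64 reached the 1 FPKM average only through control 3, so the filter fixed where they were highest. DAD1, JAZ8, CYP94B3, AT2G38240 and TPS04 were under 1 FPKM in every other library. Outside control 3, CYP94C1 and JMT were above 1 FPKM only in control 2, at 1.17 and 3.08 FPKM. All these genes are included in the counts of genes highest in control 3 given for each of the 6 lists below. ERF1, JAL23, NATA1, CYP94B3, TPS04 and PDF1.2A to PDF1.2C, among others, count in the 46 below every control. They were under 1 FPKM in each doxycycline library, so only controls carried them past the filter. The lists were drawn up with results of these data known, so these counts are descriptive.

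Jasmonate synthesis starts with lipoxygenases and proceeds through allene oxide synthase and cyclases to OPR3. Of 14 such genes 0 passed over all genes, 10 lay below every control (8 under either scaling, where all genes had 25.7%, and 17.1% and 16.7% under the scalings) and 14 had their highest value in control 3, with a median log2 difference of -1.88 where all genes had -0.29. Against controls 1 to 3 the list's medians were -0.69, -1.12 and -3.48, and without control 3 its median was -1.03. The cyclase gene AOC3 measured 3.57, 19.1 and 147 FPKM without the drug and 2.19, 2.65 and 3.86 FPKM on doxycycline (log2 difference -2.64, SE 1.11, limma adjusted p = 0.195). It thus ranked the controls as the members did, but doxycycline library 3 lay above control 1. AOC1, a second cyclase gene, was at 81.8, 58.1 and 712 FPKM against 26.8, 27.8 and 19.9 FPKM (log2 difference -2.57, SE 0.867, adjusted p = 0.153). For OPR3 and LOX3 the differences were -3.05 and -2.62, with limma adjusted p-values of 0.140 and 0.263.

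JAZ proteins repress MYC2 and are themselves induced by jasmonate, as a feedback. Of 12 JAZ genes 0 passed over all genes, 8 lay below every control (also 8 under either scaling, beside 25.7%, 17.1% and 16.7% of all genes) and 11 were highest in control 3 (median log2 difference -2.21, with -1.09, -1.39 and -3.87 against controls 1 to 3). Without control 3 the median was -1.27. JAZ1 measured 9.08, 37.6 and 165 FPKM without the drug and 2.73, 1.96 and 2.17 FPKM on doxycycline (log2 difference -3.62, SE 0.898, limma adjusted p = 0.131). JAZ10 stood at 2.14, 3.11 and 90.8 FPKM against 0.647, 0.519 and 0.396 FPKM (log2 difference -2.80, SE 1.2, adjusted p = 0.197). JAZ1 ranked the controls as CORI3 did, while in JAZ10 control 3 stood far above both other controls, as in TAT3. JAZ5 and JAZ2 differed by -3.29 and -2.79, with adjusted p-values of 0.161 and 0.133.

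Perception and regulator genes had a median log2 difference of -1.21 over 12 tested genes, of which 0 passed over all genes and 9 lay below every control, as 25.7% of all genes did. That count was 9 after median-of-ratios scaling (17.1% of all genes) and 8 after quantile normalization (16.7%). After median-of-ratios scaling the median was -0.88, and 2 of the 12 had positive differences under either scaling. Of the 12, 5 were highest in control 3, 6 in control 2 and 1 in control 1, where 20.7% of all genes were highest in control 3. MYC2, the main activator of the storage protein genes, measured 17.0, 55.5 and 196 FPKM without the drug and 6.41, 7.40 and 7.64 FPKM on doxycycline (log2 difference -2.85, SE 0.767, limma adjusted p = 0.134). Its relatives MYC4 and MYC3, which overlap with it in function, differed by -2.16 (SE 0.618, adjusted p = 0.138) and -0.95 (SE 0.237, adjusted p = 0.131). Both were highest in control 2, at 48.2 and 60.9 FPKM, not in control 3. COI1, the receptor, measured 14.9, 34.3 and 18.5 FPKM without the drug and 18.4, 16.9 and 19.4 FPKM on doxycycline, with overlapping groups (log2 difference -0.21, SE 0.304, limma adjusted p = 0.659). Its difference turned positive, at 0.11, after median-of-ratios scaling and at 0.02 after quantile normalization. JAM1, a repressor that competes with MYC2 and is listed as AIB in the reference, differed by -2.01, and the transcription factor NAC019 by -1.90, with adjusted p-values of 0.152 and 0.129.

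Genes for jasmonate turnover and modification had a median of -1.66 over 10 tested genes, of which 0 passed over all genes, 5 lay below every control and 10 were highest in control 3. Below every control were 25.7% of all genes, and the list's count was 5 after median-of-ratios scaling (17.1% of all genes) and 4 after quantile normalization (16.7%). Against controls 1 to 3 the medians were -0.86, -1.04 and -3.80, and without control 3 the median was -0.87. AT5G05600, annotated as a 2-oxoglutarate-dependent oxygenase, measured 32.2, 12.1 and 240 FPKM without the drug and 4.94, 5.07 and 3.53 FPKM on doxycycline (log2 difference -3.11, SE 0.952, limma adjusted p = 0.142). IAR3, an amidohydrolase that cleaves jasmonoyl-isoleucine, differed by -2.63, CYP94B1, which oxidises it, by -2.33, and JRG21 by -1.74, with adjusted p-values of 0.154, 0.211 and 0.140.

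Other outputs of the MYC branch came closest to the members in kind. Of 8 tested genes 0 passed over all genes, 6 lay below every control (25.7% of all genes did) and 6 were highest in control 3 (median log2 difference -2.30, with -0.82, -2.43 and -3.74 against controls 1 to 3, where the members' medians were -2.06, -4.14 and -5.76). Those below numbered 6 after median-of-ratios scaling (17.1% of all genes) and 5 after quantile normalization (16.7%). JAL23, a jacalin-related lectin gene, stood at 0.793, 29.7 and 117 FPKM without the drug and was listed at 0, 0 and 0.088 FPKM with doxycycline. CLH1, a chlorophyllase gene first found as coronatine-induced, stood at 24.6, 77.5 and 419 FPKM against 12.403, 14.033 and 13.032 FPKM (log2 difference -2.74, SE 0.896, limma adjusted p = 0.149). DHAR1, for dehydroascorbate reductase, stood at 265, 464 and 1204 FPKM against 81.0, 89.5 and 95.2 FPKM (log2 difference -2.57, SE 0.511, adjusted p = 0.121). NATA1, for an acetyltransferase, was highest in control 2 at 30.3 FPKM and differed by -3.16 (SE 0.811, adjusted p = 0.132).

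The branch shared by jasmonate and ethylene, run by the factors ERF1 and ORA59, ranked the controls in more than 1 way. All 8 of its genes, 4 of them PDF1 defensin genes, lay below every control (7 under either scaling, beside 25.7%, 17.1% and 16.7% of all genes) and 0 passed over all genes, with a median log2 difference of -3.37. Of the 8, 5 were highest in control 1 and 1 in control 3, whereas all 4 members were highest in control 3. The 5 were ORA59 and the PDF1 genes. Controls 1 to 3 held 0.214, 3.545 and 3.53 FPKM for ERF1 and 103, 331 and 296 FPKM for PR4. For CHI-B they held 9.53, 59.2 and 70.8 FPKM. ERF1, PR4 and CHI-B were thus lowest in control 1, as the members were, and CHI-B alone had the members' order. PDF1.2A, with a log2 difference of -4.85, had 108, 62.3 and 2.48 FPKM in controls 1 to 3, and PDF1.2B, at -3.78, had 28.1, 19.8 and 3.30 FPKM. PDF1.3, at -4.20, had 82.2, 25.8 and 4.48 FPKM, and PDF1.2C, at -3.73, had 54.2, 24.0 and 0.699 FPKM. With doxycycline PDF1.3 was listed at 0 in 2 libraries and the other 3 genes in all 3, and limma adjusted p-values ran from 0.121 to 0.143. Defensin genes of this family are near-identical, so the split of reads between them is uncertain. Whether the branches differ in how they rank the controls was not tested.

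**Figure D3:**
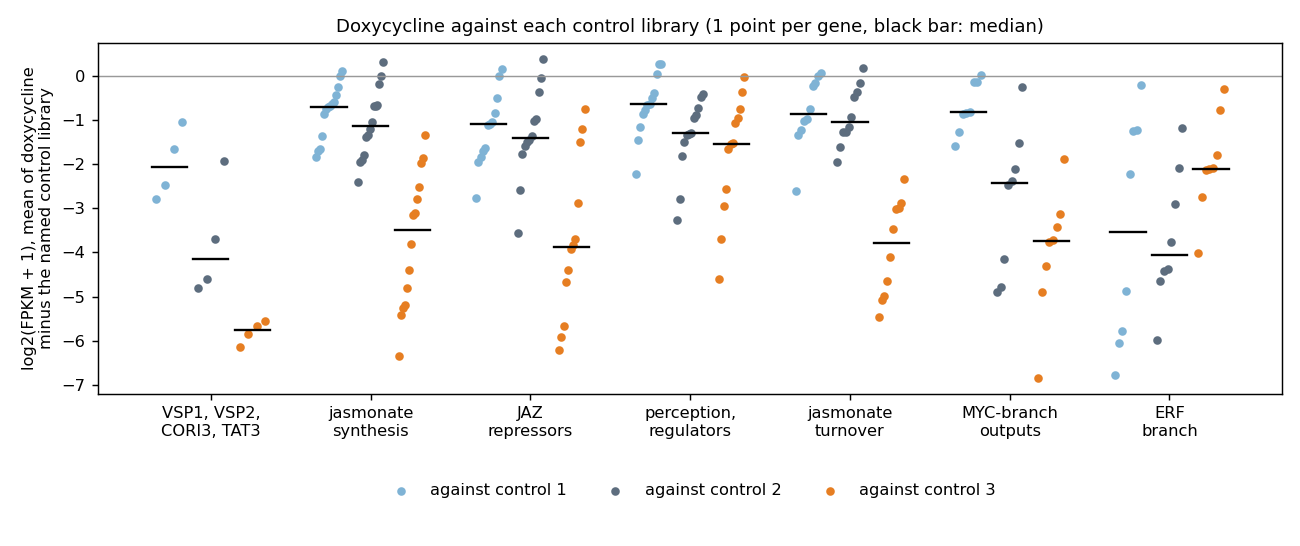
Mean log2(FPKM + 1) of the doxycycline libraries minus that of control 1 (light blue), control 2 (grey) or control 3 (orange), with 1 point per tested gene and a black bar at the median of each list. The members' medians are -2.06, -4.14 and -5.76, and the ERF branch alone among these lists has its smallest median difference, -2.10, against control 3.

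Relatives by sequence family had values of several kinds. Of 8 other HAD acid phosphatase genes 7 were tested, 0 passed over all genes, 3 lay below every control and 0 above, where 25.7% and 9.59% of all genes did. After either scaling 2 lay below and 1 above, beside 17.1% and 18.2% of all genes under median-of-ratios scaling and 16.7% and 17.2% under quantile normalization. The median log2 difference was -0.08, and it turned to 0.25 after median-of-ratios scaling and 0.06 after quantile normalization. The family member AT4G29270 measured 24.8, 103 and 71.1 FPKM without the drug and 12.6, 14.2 and 21.8 FPKM on doxycycline (log2 difference -1.79, SE 0.506, limma adjusted p = 0.138). In AT5G44020 the sign was positive, at 764, 44.2 and 236 FPKM against 755, 656 and 720 FPKM (log2 difference 1.82, SE 0.913, adjusted p = 0.240), with control 1 level with the doxycycline libraries. AT4G29260 and AT1G04040 differed by 0.14 and -0.08, AT2G39920 by 0.39, AT4G25150 by -1.11 and AT5G51260 by -0.74, with adjusted p-values from 0.174 to 0.857.

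Of 6 other tyrosine transaminase genes 5 were tested and 0 passed over all genes, and 2 lay below every control (1 of the 3 tested after median-of-ratios scaling), where 25.7% of all genes did (17.1% after that scaling). SUR1, the carbon-sulfur lyase of glucosinolate synthesis, was 1 of these, at -1.74 (SE 0.403, limma adjusted p = 0.128). AT5G36160 was the other, at 32.2, 38.9 and 58.6 FPKM without the drug and 31.5, 29.4 and 26.7 FPKM with doxycycline (log2 difference -0.51, SE 0.244, adjusted p = 0.225). TAT7, which makes precursors of vitamin E, stood at 14.7, 42.7 and 40.7 FPKM against 22.3, 24.3 and 19.2 FPKM, with overlapping groups (log2 difference -0.42, SE 0.399, adjusted p = 0.490). AT4G23590, beside CORI3 on the chromosome, stayed at 0.246 to 2.48 FPKM in all libraries (log2 difference -0.82, SE 0.416, adjusted p = 0.241). AT4G28410 differed by 0.04 (adjusted p = 0.963).

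**Figure D4:**
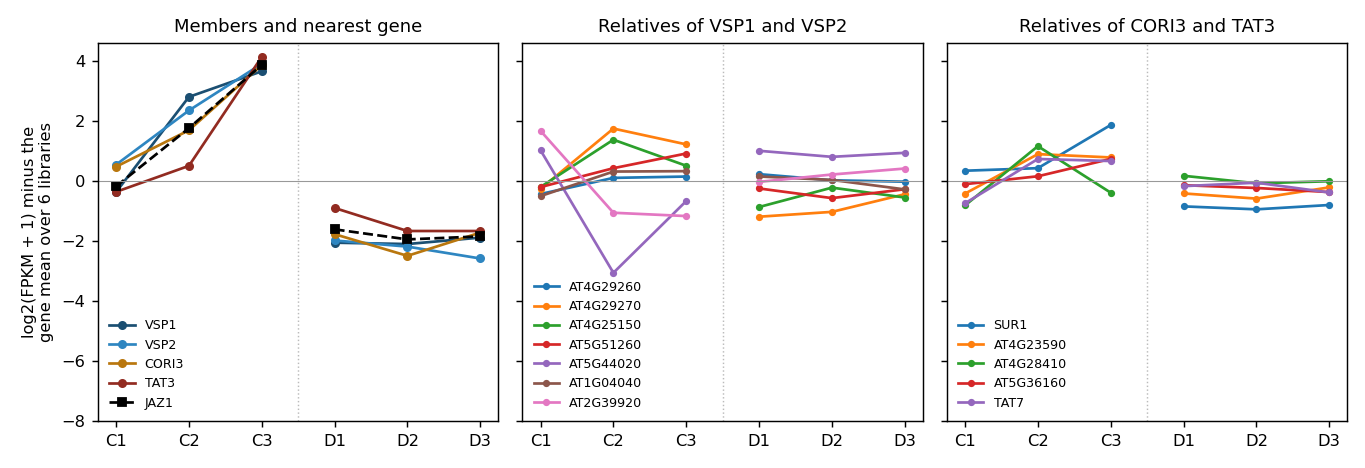
log2(FPKM + 1) minus each gene's mean over the 6 libraries, in controls (C1 to C3) and doxycycline libraries (D1 to D3), for the members with JAZ1 (left), other HAD acid phosphatase genes (middle) and other tyrosine transaminase genes (right). Lines join values of 1 gene and imply no order of libraries. The members and JAZ1 are high in C3 and low in D1 to D3, while the relatives point in several directions, with AT5G44020 lowest in C2.

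Genes beside the members on the chromosome had other values. The pseudogene AT5G24775, between VSP2 and VSP1, was listed at 0 in all 6 libraries. BZIP9, 2 genes beyond VSP1, measured 65.1, 81.3 and 57.7 FPKM without the drug and 60.2, 64.5 and 72.5 FPKM on doxycycline (log2 difference -0.04, limma adjusted p = 0.904). On the other side of VSP2, the dehydrogenase gene AT5G24760 stood at 4.94, 25.7 and 13.7 FPKM against 5.88, 6.59 and 6.71 FPKM (log2 difference -0.85, adjusted p = 0.301), and AT5G24750 differed by -0.29 (adjusted p = 0.573). Beside TAT3, AT2G24860 stood at 29.6, 18.7 and 35.0 FPKM against 26.1, 28.0 and 20.8 FPKM (log2 difference -0.11, adjusted p = 0.788), AT2G24830 differed by -0.17 (adjusted p = 0.550), and AGL61 and AT2G24870 averaged under 1 FPKM and were not tested. AT5G24790 beside VSP1 and AT4G23610 beside CORI3 were under 1 FPKM in each library. None of the tested neighbours outside the members separated the groups.

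Among all genes tested, the profile nearest to the mean profile of the 4 members was that of JAZ1, at a root mean square distance of 0.138 log2 units over the 6 libraries (Pearson's r 0.998). Next came AT4G15150, annotated as a glycine-rich protein, at 0.311, then GRX480, a glutaredoxin gene, at 0.531, the aspartyl protease family gene AT5G19110 at 0.533 and the monodehydroascorbate reductase gene MDHAR at 0.545. AT4G15150 measured 2.66, 15.7 and 92.8 FPKM without the drug and 0.932, 0.154 and 0.614 FPKM on doxycycline. Taken singly, VSP1 was nearest to AT5G19110, JAZ1 and the beta-amylase gene BAM5, at 0.480 to 0.492. VSP2 was nearest to CORI3, VSP1 and JAZ1, and CORI3 to JAZ1, AT4G15150 and VSP2. TAT3 was nearest to PSK2, a gene for a phytosulfokine peptide precursor, at 0.229, then to the MATE efflux gene AT1G61890 at 0.317 and to JAZ10 at 0.318. PSK2 measured 3.49, 6.56 and 68.3 FPKM without the drug and 1.76, 0.350 and 0.959 FPKM on doxycycline, with control 3 far above the other controls, as for TAT3. All these distances include the step between groups on which the members were picked, so they only describe likeness.

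Markers of organs were read beside these values, since storage protein genes are known to be active in shoots and flowers. All 5 green-tissue and all 5 root markers were above 0 in every library. The summed FPKM of the green-tissue markers was 56971, 15222 and 25291 across controls 1 to 3 and 46263 to 48977 with doxycycline. CAB1 alone held 38904, 6239 and 9304 FPKM of it in controls 1 to 3 and 30168 to 33266 FPKM with doxycycline. Among the controls RBCS1A and CA1 were highest in control 1, as CAB1 was. LHCB2.1 and RBCS1B were highest in control 3, at 2508 and 677 FPKM, against 2175 and 260 FPKM in control 1. The summed FPKM of the root markers was 549, 1606 and 1583 across controls 1 to 3 and 730 to 813 with doxycycline. The root gene BGLU23 made up most of that sum, at 544, 1592 and 1551 FPKM in controls 1 to 3. Of the 4 root markers tested, TIP2;3 alone had a positive log2 difference, 1.26. The 5 flower markers summed to 5.74 to 14.1 FPKM without the drug and 6.54 to 8.35 FPKM with doxycycline. Of these, AP1 was listed at 0 in control 1 and in 2 doxycycline libraries and reached 0.780 and 1.95 FPKM in controls 2 and 3, and AP3 was at 0.05, 1.34 and 3.45 FPKM across controls 1 to 3 and at most 0.046 FPKM with doxycycline. PI was at 0.563, 2.24 and 4.01 FPKM across controls 1 to 3 and 0.304 to 0.701 FPKM with doxycycline, and AG at 0, 0.230 and 0.363 FPKM and at most 0.030 FPKM. SEP3, which makes up most of the sum in each doxycycline library, was at 5.62, 1.16 and 4.36 FPKM across controls 1 to 3 and above every control with doxycycline, at 6.88, 6.23 and 7.62 FPKM. The 4 seed storage markers summed to 41.3, 0.237 and 5.03 FPKM across controls 1 to 3 and 17.1 to 32.9 FPKM with doxycycline. The sum over 5 stomatal lineage markers was 19.4 to 30.8 FPKM without the drug and 29.1 to 31.0 FPKM with doxycycline, and that of the myrosin cell markers TGG1 and TGG2 399 to 899 and 539 to 636 FPKM. Of the 5 flower markers, 4 thus ranked the controls as the members did and SEP3 did not. AP1, AP3 and AG averaged under 1 FPKM over the 6 libraries. The root markers CASP1, COBL9 and TIP2;3, the green-tissue marker RBCS1B and the stomatal lineage marker FAMA had the same ranking, and the remaining markers did not. The part of any of these markers in the members' values was not tested.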

How the data were processed

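Total RNA of whole seedlings was extracted with TRIzol and made into libraries with the VAHTS Universal V6 kit, per the labels' protocols. The authors deposited 1 table of FPKM values, with 1 column per library and 33532 identifiers. TopHat2 2.1.0, Cufflinks 2.2.1 and TAIR10 are named in the submitters' processing notes, which as used here give no filter, strand setting or annotation. The header names no unit, which was read from the values and from the tools named.

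FPKM divides by each library's total, so a few abundant genes can move all others. Low values of genes with 1 model of at least 600 bases gave the depth estimate, but only 44.4% to 54.5% of them lay within 0.08 of a whole read (16% would by chance), so no count model was run.

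The 19035 genes averaging 1 FPKM or more were fitted on the log2(FPKM + 1) scale with limma 3.58.1 in R 4.3.3 with a trend on abundance, no covariate, two-sided, Benjamini-Hochberg adjusted over these genes at 0.05. Differences understate low genes on this scale. Members, lists and named genes were chosen with earlier results of these data known. The text names the members, their tested relatives, 2 neighbours on each side, the 4 largest absolute differences per list, COI1 and MYC2 to MYC4, and the nearest profiles (3 per member, 5 for their mean). The flower markers, TGG1 and TGG2 were named after their values were seen. Sequences were read with Biopython 1.88 from RefSeq TAIR10.1, in which 32789 identifiers were found. Protein sequences were not used here.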

Additional observations from a re-analysis of the deposited data

How the results depend on the processing

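The 6 jasmonate list medians were negative under all alternatives run: a pseudocount of 0.1, no filter, a minimum average of 5 FPKM, 2 scalings, the replicate block and each library left out. The members were picked as low with doxycycline, so nothing is read from their sign. Leaving out 1 library gave log2 differences of -5.24 to -3.23 for VSP1, -5.38 to -3.70 for VSP2, -4.77 to -3.08 for CORI3 and -3.73 to -1.48 for TAT3. List medians ranged from -2.36 to -1.03 (synthesis), -2.82 to -1.27 (JAZ), -1.32 to -1.02 (regulators), -2.44 to -0.87 (turnover), -3.04 to -1.82 (MYC outputs) and -3.56 to -2.95 (ERF branch). With a pseudocount of 0.1 TAT3 moved to -5.08 and the ERF branch to -4.99, since both hold values listed at 0. Median-of-ratios scaling moved the regulators from -1.21 to -0.88 and the median of all genes tested from -0.29 to 0.007, and the cause was not tested. The ratio of VSP2 to VSP1 ranged from -0.71 to 0.002 as a log2 difference and lost its sign, at 0.002, without control 1.

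Limma calls numbered 0 to 8637 over the libraries left out: 8637 without control 1, 2 without control 3 and 0 without any other. Separated genes numbered 7345 to 13125, and fewer libraries separate more easily. The replicate block gave 0 calls and 4265 genes at an unadjusted p under 0.05. Deviations of same-numbered libraries correlated at -0.002, -0.014 and -0.137. With 3 libraries per group these values cannot decide whether equal numbers share a plate or harvest, and the main fit assumed no pairing. TAT3 was listed at 0 in 2 doxycycline libraries, so no fold change between its group means in FPKM is given.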
